A study of Homo sapiens with 18 samples.

Results

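Frizzled proteins are the cell surface receptors for Wnt ligands, and the human genome holds 10 of them, FZD1 to FZD10. Their mRNA was followed through every condition of a series on the chromatin reader ZMYND8 and the chemotherapeutic drug doxorubicin in MDA-MB-231 cells, an established line of basal, triple-negative breast cancer. The 10 members, of 60603 genes in each of the 2 count tables, were chosen by gene family name and matched by gene identifier, with no threshold on any measured value. The family itself was proposed after results of these data were known, so the adjusted p-values below set each difference against the spread between libraries and are not independent support for the choice of family.

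Poly(A) RNA was sequenced from 9 conditions with 2 libraries each, which the labels describe as biological replicates. In the inducible system, MDA-MB-231 cells carried a stably integrated, doxycycline-inducible lentiviral cassette (pInducer20, selected with G418) for GFP or for FLAG-tagged ZMYND8. Cells of both lines received 250 ng/mL doxycycline. They were collected without doxorubicin (called untreated here) or after 6 h or 48 h of 0.6 µM doxorubicin, which was added 4 h after doxycycline. In the transient system, control cells were compared with cells given 0.6 µM doxorubicin for 48 h and with cells labelled as transfected with FLAG-ZMYND8 24 h before the same treatment. A single line was made per inducible construct, so an effect of ZMYND8 and a difference between the 2 lines cannot be told apart.

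Wnt ligands bind the cysteine-rich extracellular domain of a Frizzled receptor together with a co-receptor such as LRP5 or LRP6. Dishevelled proteins then relay the signal, and beta-catenin escapes degradation and enters the nucleus to act with TCF and LEF factors. Other Wnt ligands act through Frizzled receptors without beta-catenin, for example in planar cell polarity. Sequence divides the family into FZD1, FZD2 and FZD7; FZD5 and FZD8; FZD4, FZD9 and FZD10; and FZD3 and FZD6. In breast cancer cells of the basal type, Frizzled receptors, FZD7 in particular, have been linked to growth and stem-like behavior.

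The inducible libraries held 18300628 to 23724398 counts, and the transient ones held 5729294 to 5972396, except for the second doxorubicin library with 24713822. ZMYND8 itself was at 829 to 1001 CPM (counts scaled to library size, TMM) in the ZMYND8 line and at 93.8 to 209 CPM in the GFP line. In the transient system it went against the label, with 219 and 199 CPM in control cells, 182 and 123 CPM after doxorubicin, and 160 and 125 CPM where the label adds ZMYND8. Replicate 2 of doxorubicin and replicate 2 of the group labelled ZMYND8 plus doxorubicin were nearly alike. Their counts gave a chi-square of 1.39 for each degree of freedom, against 9.71 to 55.6 for all other transient pairs. Of 4 markers of this line, VIM, CD44 and MSN were abundant in every library, but SPARC was at 107 to 182 CPM in the GFP line, at 0.20 to 1.56 CPM in the ZMYND8 line and at 2.82 to 6.11 CPM in the transient libraries. Of the luminal markers, ESR1 and PGR were at most at 0.799 CPM in any library. The other 4 of that list were detected in every library, with ERBB2 at 93.2 to 110 CPM in the GFP line, 73.2 to 95.6 CPM in the ZMYND8 line and 130 to 166 CPM in the transient libraries, EPCAM at 27.0 to 37.4, 6.89 to 11.5 and 28.2 to 44.5 CPM, GATA3 at 9.15 to 17.2, 13.997 to 20.4 and 8.86 to 13.2 CPM, and CDH1 at 0.580 to 11.02, 3.20 to 21.7 and 0.954 to 9.52 CPM. The summed level of PTPRC, PECAM1 and COL1A1, markers of leukocytes, endothelium and fibroblasts, ran from 14.6 to 29.7 CPM in the GFP line, from 7.49 to 12.7 CPM in the ZMYND8 line and from 10.8 to 33.3 CPM in the transient libraries. These markers also moved with doxorubicin. All 4 line markers were lower at 48 h than untreated in both lines (median log2 change -0.96 in GFP and -1.03 in ZMYND8 cells), beside 31.8% and 30.8% of all genes. Of the 3 markers of other cells, 2 were higher and 1 lower at 48 h in GFP cells and 1 was higher in ZMYND8 cells, beside 32.4% and 31.6% of all genes higher. From 6 h to 48 h 3 and 2 were higher, beside 32% and 30.2% of all genes. Of the 6 luminal and epithelial markers, 2 were higher and 2 lower at 48 h in GFP cells (32.4% and 31.8% of all genes). In ZMYND8 cells 3 were higher and 2 lower (31.6% and 30.8%). From 6 h to 48 h, 4 were higher and 1 lower in GFP cells (32% and 30.2%), with a median log2 change of 1.91. In ZMYND8 cells 3 were higher and 2 lower (30.2% and 31.3%), with a median of 0.84. At 6 h 0 were higher and 3 lower in GFP cells (22.1% and 25.8%), and 0 and 1 in ZMYND8 cells (21.8% and 19%). The part of these markers in the results below was not tested.

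FZD2, FZD6 and FZD7 made up most of the family's mRNA. Levels of different genes are compared here as CPM per kilobase (kb) of exon. In untreated GFP cells the order was FZD2 (27.2 ± 0.971), FZD6 (25.1 ± 1.31), FZD7 (18.7 ± 0.149), FZD1 (6.92 ± 0.242), FZD4 (4.37 ± 0.0608), FZD5 (1.59 ± 0.195), FZD3 (0.813 ± 0.0997) and FZD8 (0.276 ± 0.00135; all SD, n = 2), and no library of one gene overlapped those of the next. FZD2, FZD6 and FZD7 together gave 83.5% of the summed family level there, and 80.0% in untreated ZMYND8 cells. The order differed in the ZMYND8 line, where FZD4 came after FZD7 (7.67 ± 0.376 CPM per kb), above FZD5 (2.65 ± 0.267) and FZD1 (1.58 ± 0.186), and where FZD3 and FZD8 overlapped.

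FZD9 and FZD10 were at or near 0. FZD10 had 0 counts in each of the 18 libraries, which allows up to 3 counts per library, or 0.114 to 0.572 CPM. FZD9 had 2 and 1 counts in untreated GFP cells, 2 and 2 at 6 h, 7 and 6 at 48 h, 0 in every library of the ZMYND8 line and at most 2 in the transient libraries. FZD9 at 48 h in GFP cells was 1.81-fold above the level of 3 counts per library in untreated GFP cells. As the untreated libraries held counts of their own, this ratio is no lower bound. It was 2.26-fold above the level of 3 counts per library in ZMYND8 cells at 48 h, where both libraries had 0. Both ratios take the 7 and 6 counts as they stand, with no lower limit. Intervals and floors of this kind cover counting error only.

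**Figure D1:**
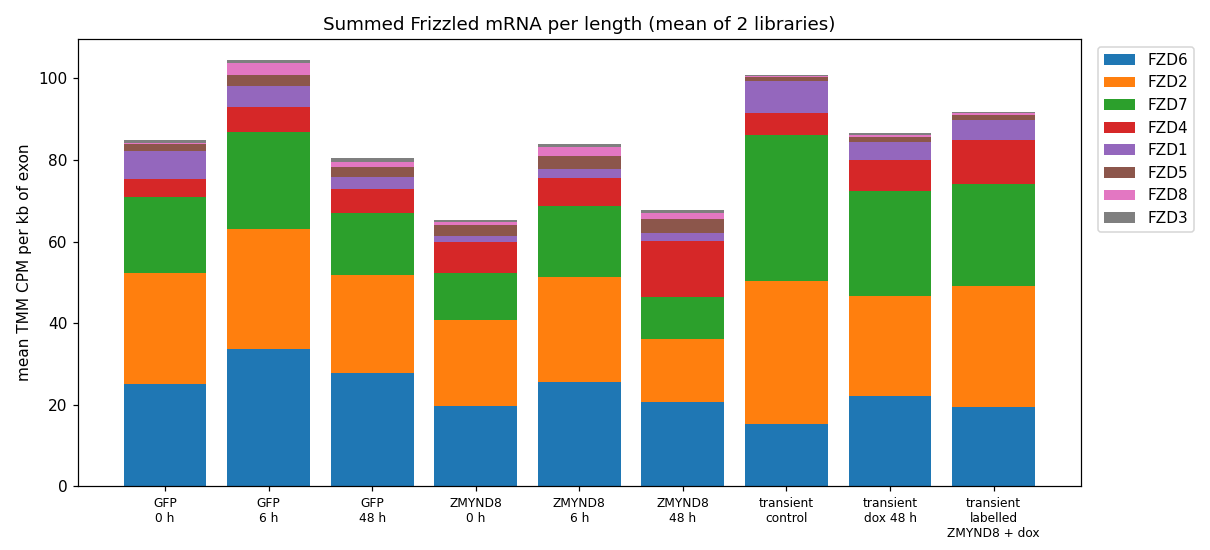
Mean TMM CPM per kb of exon (vertical axis) of 8 Frizzled receptors, stacked, in the 9 conditions (bars, mean of 2 libraries each); FZD9 and FZD10 are too low to be drawn. FZD2, FZD6 and FZD7 fill most of every bar, the summed level on this scale is highest at 6 h in both inducible lines, and FZD4 takes its largest share in ZMYND8 cells at 48 h. The transient bars come from a separately normalized table.

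The summed family level was 85.0 ± 0.170 CPM per kb (SD, n = 2) in untreated GFP cells, 104 ± 0.220 at 6 h and 80.6 ± 1.08 at 48 h of doxorubicin. In the ZMYND8 line it was 65.3 ± 1.59, 83.9 ± 0.448 and 67.8 ± 0.589 at the same times. Both lines thus had their highest sum at 6 h on the TMM scale, with no overlap between the libraries of 6 h and those of the other times. Scaled to library totals, an alternative chosen after seeing the data, the sums were 80.3, 98.7 and 90.3 in GFP cells and 63.4, 76.9 and 75.8 in ZMYND8 cells. On that scale the libraries of 6 h and 48 h in the ZMYND8 line, at 76.9 and 77.0 against 74.8 and 76.7, nearly met, and GFP cells at 48 h lay above untreated cells instead of below them. The share of FZD4 in this sum was 5.14% in untreated GFP cells and 7.32% at 48 h, against 11.8% and 20.4% in the ZMYND8 line. FZD1 moved the other way in GFP cells, from 8.14% to 3.73%, and was at 2.41% and 2.60% in the ZMYND8 line.

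The genes lie at 10 separate loci. FZD5 and FZD7 share chromosome 2, FZD1 and FZD9 chromosome 7, and FZD3 and FZD6 chromosome 8. In the annotation of the files (hg38, GENCODE release 31), FZD8 lies at chr10:35638249-35642278 on the minus strand with a single exon block of 4030 bases. FZD1 (chr7:91264364-91271326, plus strand), FZD2 (chr17:44557459-44559570, plus strand) and FZD7 (chr2:202034587-202038445, plus strand) also have a single exon block. FZD5 (chr2:207762598-207769906) and FZD4 (chr11:86945679-86955395), both on the minus strand, have 2. FZD4 is the member whose exons share the most bases with a gene on the other strand, 1399 bases with the protease gene PRSS23. FZD8 shares 318 bases with a long RNA of at most 11 counts in any library, and FZD6 138 bases with BAALC-AS1, at most 59 counts. The counts were made in a reverse-stranded mode, but the protocol names no step that marks the strand. Where a library does not mark it, reads of FZD4 and PRSS23 from the shared bases cannot be told apart.

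The sequences before the start sites of FZD8, FZD5, FZD1 and FZD4 are shown here, for members whose mRNA changed in the comparisons that follow. RefSeq (GRCh38.p14) gave a promoter sequence for 5 of the 10 members (FZD1, FZD4, FZD5, FZD8 and FZD9), and the other 5 (FZD2, FZD3, FZD6, FZD7 and FZD10) had no entry. FZD9, at or near 0 counts, is not printed. The sequences run 5′ to 3′ on the gene's strand over the 250 bases before the start, and that of FZD1 stops after 181 bases, before the first base of the gene in the files, which lies 69 bases ahead of the RefSeq start. Capitals mark CCAAT (read on either strand, so also ATTGG) and TATAAA (also TTTATA); the 2 motifs do not overlap here.

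FZD8, chr10:35642297-35642546, minus strand: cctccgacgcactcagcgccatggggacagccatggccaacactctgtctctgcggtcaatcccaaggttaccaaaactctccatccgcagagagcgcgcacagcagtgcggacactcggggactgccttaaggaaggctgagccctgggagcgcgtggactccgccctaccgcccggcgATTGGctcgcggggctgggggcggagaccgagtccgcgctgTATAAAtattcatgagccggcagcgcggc
FZD5, chr2:207769907-207770156, minus strand: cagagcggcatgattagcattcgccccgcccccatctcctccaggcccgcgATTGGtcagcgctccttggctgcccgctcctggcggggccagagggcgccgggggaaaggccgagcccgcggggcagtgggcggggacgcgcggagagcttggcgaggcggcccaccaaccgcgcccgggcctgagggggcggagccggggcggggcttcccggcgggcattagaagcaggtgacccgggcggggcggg
FZD1, chr7:91264183-91264363, plus strand: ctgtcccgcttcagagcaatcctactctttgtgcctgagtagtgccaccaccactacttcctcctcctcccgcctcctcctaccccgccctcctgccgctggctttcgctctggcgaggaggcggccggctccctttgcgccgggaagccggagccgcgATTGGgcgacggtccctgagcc
FZD4, chr11:86955396-86955645, minus strand: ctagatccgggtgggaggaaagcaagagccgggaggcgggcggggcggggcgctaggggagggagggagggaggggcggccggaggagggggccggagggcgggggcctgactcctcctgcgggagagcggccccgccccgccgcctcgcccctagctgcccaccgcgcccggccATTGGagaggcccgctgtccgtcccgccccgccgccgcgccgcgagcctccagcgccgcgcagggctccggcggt

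CCAAT stood in all 4 printed sequences, once in each, beginning 70 bases before the RefSeq start in FZD8, 75 in FZD4, 91 in FZD1 (22 from the end of the printed sequence) and 199 in FZD5, and had 0 matches in FZD9. It occurs in 32.0% of the 35116 promoter sequences of the same 250 bases. TATAAA was found in FZD8 alone of the 5 members, beginning 29 bases before the start, and occurs in 10.7% of all promoters. GGGCGG, also read on both strands and not capitalized, was found 6 times each in FZD4 and FZD5, 3 times in FZD8, 2 times in FZD9 and 1 time in FZD1, and occurs at least a single time in 42.6% of all promoters. The G and C content of the 250 bases ran from 65.2% in FZD1 and FZD8 to 80.8% in FZD4, against a median of 58.0% over all promoters. These matches describe letters and were not tested as binding sites.

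The first question is how the receptors changed with doxorubicin in control cells of the inducible system. Of the 8 members that passed the filter on low counts (all but FZD9 and FZD10), 5 were higher and 1 lower at 6 h in GFP cells at an adjusted p of at most 0.05, while 22.1% of all 18801 genes tested were higher and 25.8% lower. At 48 h, 5 were higher and 3 lower, beside 32.4% and 31.8% of all genes, and some of these calls rest on single libraries, as given by member below. From 6 h to 48 h, 1 member was higher and 5 were lower, beside 32% and 30.2% of all genes. In the ZMYND8 line, 7 members were higher and 1 lower at 6 h (all genes 21.8% and 19%), 3 higher and 2 lower at 48 h (31.6% and 30.8%), and 1 higher and 5 lower at 48 h than at 6 h (30.2% and 31.3%). The 8 calls at 6 h in ZMYND8 cells became 5 with DESeq2, with no filter on low counts and in a fit of only the libraries compared. The calls over all genes fell as well, from 7674 of 18801 to 6376 with DESeq2. They were 7327 of 39998 with no filter and 7122 of 15783 with only the libraries compared. Some of the 8 calls also rest on single libraries, as given by member below. The median member changed by 0.39 on the log2 scale at 6 h in GFP cells and by 0.36 in ZMYND8 cells, against -0.05 and -0.01 for the median of all genes.

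Changes at 48 h depend in part on scaling. With library totals in place of TMM factors, the median of all genes moved from 0.03 to 0.27 (log2) in GFP cells and from 0.05 to 0.25 in ZMYND8 cells at 48 h, and from 0.04 to 0.28 and from 0.04 to 0.32 between 6 h and 48 h. The share of higher genes among those called rose with it, from 50.4% to 68.1% in GFP and from 50.6% to 66.9% in ZMYND8 cells at 48 h, from 51.4% to 72.1% and from 49.1% to 74.1% between 6 h and 48 h, and fell from 53.5% to 39.7% at 6 h in ZMYND8 cells. The members' calls moved as well. With library totals, 5 were higher and 1 lower at 48 h in GFP cells, and 2 higher and 3 lower there from 6 h to 48 h. Beside these, 12490 and 12110 of all 18801 genes were called on that scale. In ZMYND8 cells 5 were higher and 1 lower at 6 h, 6 and 1 at 48 h, and 2 and 2 from 6 h to 48 h. There 7571, 12040 and 12247 of all genes were called. The split at 6 h in GFP cells stayed at 5 and 1. Values under library totals are given below where they change a member's call in these comparisons or between the lines.

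**Figure D2:**
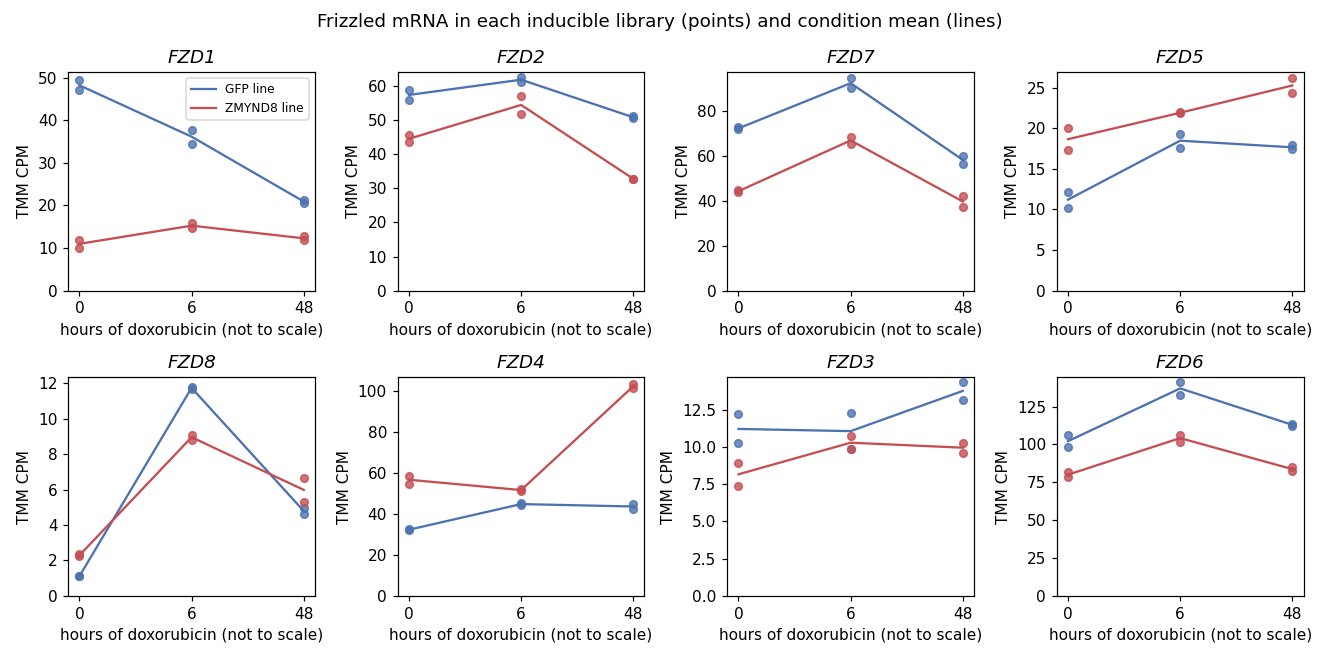
TMM CPM (vertical axes, from 0) of each of 8 Frizzled receptors in the 12 inducible libraries (points) at 0, 6 and 48 h of doxorubicin (horizontal axis, evenly spaced), with the mean of each condition joined by lines; GFP line in blue, ZMYND8 line in red. FZD8 peaks at 6 h in both lines, FZD1 lies below its untreated level at both doxorubicin times in GFP cells alone, and FZD4 climbs to 101 and 103 CPM in ZMYND8 cells at 48 h.

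FZD8, a receptor that can signal with LRP6 to beta-catenin, rose more than any other member. It stood at 1.12 and 1.11 CPM (22 and 21 counts) in untreated GFP cells, 11.8 and 11.7 CPM at 6 h and 4.62 and 4.96 CPM at 48 h. The libraries of the 3 times did not overlap. The change was 3.39 on the log2 scale at 6 h (SE 0.195, adjusted p = 5.45e-14), a 10.5-fold rise, and 2.10 at 48 h (SE 0.214, adjusted p = 2.03e-09), and FZD8 fell by 1.29 from 6 h to 48 h (SE 0.15, adjusted p = 2.72e-08).

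In the ZMYND8 line FZD8 was at 2.35 and 2.23 CPM untreated, 8.82 and 9.09 CPM at 6 h and 5.29 and 6.68 CPM at 48 h. The same order of times was seen, from a higher start. FZD8 rose by 1.97 (SE 0.174, adjusted p = 5.85e-10) at 6 h and by 1.39 (SE 0.179, adjusted p = 1.71e-07) at 48 h, and then fell by 0.58 from 6 h to 48 h (SE 0.148, adjusted p = 0.00135), which became -0.29 with adjusted p = 0.0875 under library totals. Doxorubicin's effect at 6 h was smaller in the ZMYND8 line (interaction -1.43, SE 0.283, adjusted p = 0.000899). At 48 h the interaction of -0.72 (SE 0.292) did not pass, with adjusted p = 0.069, and passed at -0.89 (adjusted p = 0.0358) without the second ZMYND8 library of 48 h.

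Between the lines, FZD8 was higher in untreated ZMYND8 than GFP cells by 1.04 (SE 0.245, adjusted p = 0.000673) and lower at 6 h (log2 change -0.39, SE 0.142, adjusted p = 0.0212). The call at 6 h was lost without any 1 of the 4 libraries at 6 h (adjusted p 0.0607 to 0.0976) and with DESeq2 (-0.40, adjusted p = 0.0845). At 48 h the difference was 0.32 (95% interval -0.00 to 0.64, adjusted p = 0.0822), and it was 0.48 (adjusted p = 0.0308) without the first ZMYND8 library of 48 h.

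FZD5, the closest relative of FZD8, rose less. Its levels were 10.2 and 12.2 CPM in untreated GFP cells, 17.6 and 19.3 CPM at 6 h and 17.4 and 17.9 CPM at 48 h. Both doxorubicin times lay above the untreated libraries and overlapped each other. The rise was 0.72 at 6 h (SE 0.106, adjusted p = 2.11e-06) and 0.66 at 48 h (SE 0.105, adjusted p = 4.24e-06).

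In ZMYND8 cells FZD5 began higher, at 19.99 and 17.3 CPM, with 21.98 and 21.9 CPM at 6 h and 24.4 and 26.2 CPM at 48 h. The rise at 48 h was 0.44 (SE 0.0925, adjusted p = 0.000165). The change from 6 h to 48 h, 0.21, had adjusted p = 0.0526 and passed with library totals (0.49, adjusted p = 5.03e-05), with at least 10 counts in every library (0.32, adjusted p = 0.00374) and in a fit of only these libraries (0.25, adjusted p = 0.0141). The rise at 6 h, 0.24 (SE 0.0959), had adjusted p = 0.0488. Its call was lost without any 1 of 7 libraries, at 0.13 without the second untreated ZMYND8 library and at 0.24 in the rest of these fits. The call was also lost with library totals (0.16, adjusted p = 0.225). It was lost too with DESeq2, no filter, at least 10 counts in every library, only the libraries compared or the replicate block (0.22 to 0.25, adjusted p 0.0513 to 0.153). FZD5 was higher in ZMYND8 than GFP cells by 0.73 (SE 0.106, adjusted p = 1.08e-06) untreated and 0.52 (SE 0.0914, adjusted p = 2.09e-05) at 48 h. At 6 h the difference was 0.25 (SE 0.0968, adjusted p = 0.0326), a call lost without the first GFP library of 6 h (adjusted p = 0.225) or either ZMYND8 library of 6 h (adjusted p = 0.0977 and 0.0806), and with library totals (0.20, adjusted p = 0.0869), DESeq2 (adjusted p = 0.118) or no filter (adjusted p = 0.108). The interaction at 6 h was -0.48 (SE 0.144, adjusted p = 0.0235). Its call was lost without the second GFP library of 6 h (-0.42) or the first untreated library of GFP (-0.36) or ZMYND8 cells (-0.39).

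**Figure D3:**
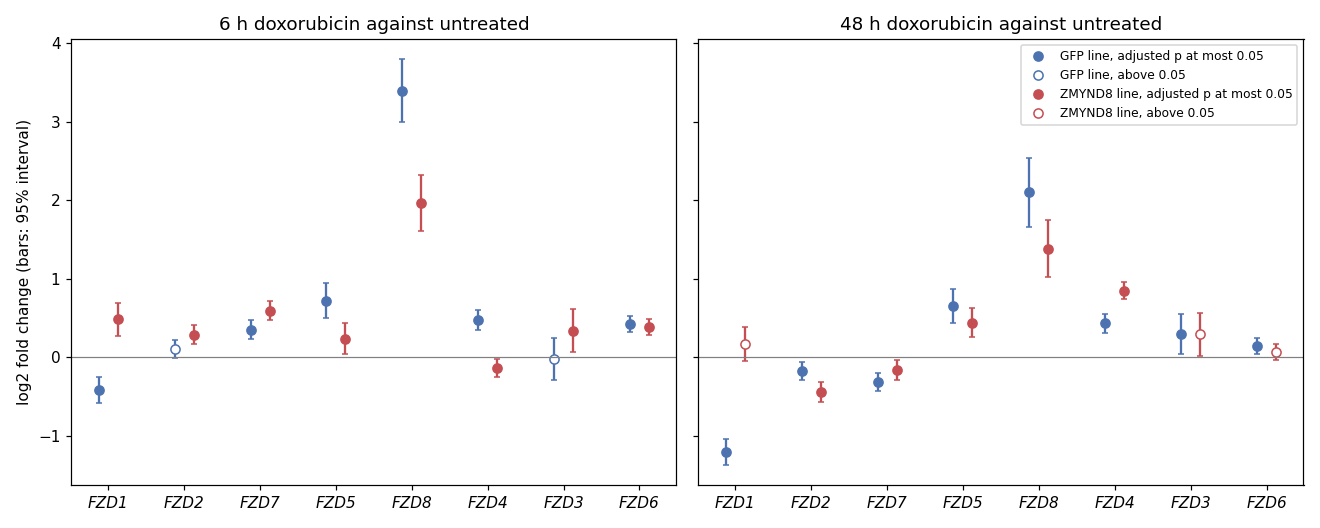
Log2 fold change (vertical axis, edgeR, bars 95% interval) of 8 Frizzled receptors at 6 h (left) and 48 h (right) of doxorubicin against untreated cells, in the GFP line (blue) and the ZMYND8 line (red); filled points have an adjusted p of at most 0.05. FZD8 stands highest in each panel and line (3.39 and 1.97 at 6 h, 2.10 and 1.39 at 48 h), and FZD1 is lower in GFP cells at both times but not in ZMYND8 cells. With library totals, FZD2 in GFP and FZD7 in ZMYND8 cells at 48 h change sign.

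FZD1, FZD2 and FZD7 form a subfamily whose members can signal through beta-catenin, and they differed among themselves. FZD1 was at 49.4 and 47.0 CPM in untreated GFP cells, 37.8 and 34.5 CPM at 6 h and 21.2 and 20.7 CPM at 48 h. Each time lay below the one before. FZD1 fell by 0.42 at 6 h (SE 0.0778, adjusted p = 6.17e-05) and by 1.20 at 48 h (SE 0.0809, adjusted p = 4.72e-13), and by 0.79 between these times (SE 0.0832, adjusted p = 4.89e-09).

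In the ZMYND8 line FZD1 was low throughout, at 11.9 and 10.1 CPM untreated, 14.6 and 15.9 CPM at 6 h and 12.7 and 11.8 CPM at 48 h. It rose by 0.48 at 6 h (SE 0.103, adjusted p = 0.000389), and its change at 48 h was 0.17 (95% interval -0.04 to 0.38, adjusted p = 0.155). With library totals the change at 48 h was 0.38, with adjusted p = 0.00249, and with at least 10 counts in every library it was 0.26, with adjusted p = 0.0295. It fell by 0.31 between 6 h and 48 h (SE 0.0987, adjusted p = 0.00816), a call lost without the second library of 48 h or of 6 h (adjusted p = 0.0578 and 0.0644) and with library totals (-0.02, adjusted p = 0.849) or at least 10 counts in every library (-0.20, adjusted p = 0.0806).

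Among the members tested, FZD1 showed the largest difference between the lines in untreated cells and at 6 h, whereas at 48 h that of FZD4 was larger. It was lower in ZMYND8 than in GFP cells untreated (log2 change -2.14, SE 0.0905, adjusted p = 3.29e-17), at 6 h (-1.25, SE 0.0888, adjusted p = 2.64e-12) and at 48 h (-0.77, SE 0.0924, adjusted p = 5.05e-08). The interaction was positive at both times, 0.90 at 6 h (SE 0.129, adjusted p = 2.11e-05) and 1.38 at 48 h (SE 0.131, adjusted p = 5.98e-09).

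FZD7 rose at 6 h in both lines and FZD2 in the ZMYND8 line, and both were lower at 48 h than at 6 h. FZD7 was at 72.5 and 71.7 CPM in untreated GFP cells, 94.4 and 90.1 CPM at 6 h and 56.3 and 60.0 CPM at 48 h. In ZMYND8 cells it was at 44.6 and 43.9 CPM, 68.5 and 65.1 CPM and 37.0 and 42.2 CPM. The 6 h libraries lay above both other times in each line.

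FZD7 rose at 6 h by 0.35 (SE 0.056, adjusted p = 5.83e-06) in GFP and 0.60 (SE 0.0608, adjusted p = 7.38e-09) in ZMYND8 cells, and from 6 h to 48 h it fell by 0.67 (SE 0.0562, adjusted p = 7.13e-11) and 0.75 (SE 0.0602, adjusted p = 2.37e-11). Its net change at 48 h was -0.31 in GFP cells (SE 0.0574, adjusted p = 3.44e-05; -0.07, adjusted p = 0.34 with library totals) and -0.16 in ZMYND8 cells (SE 0.0632, adjusted p = 0.0318; 0.05, adjusted p = 0.536 with library totals). The latter call was lost without the first ZMYND8 library of 48 h (-0.07, adjusted p = 0.423) or without the first or second untreated ZMYND8 library (adjusted p = 0.056 and 0.0584), and with DESeq2 (-0.14, adjusted p = 0.135), at least 10 counts in every library (-0.07, adjusted p = 0.337) or only the libraries compared (-0.14, adjusted p = 0.0715). FZD7 was lower in ZMYND8 than GFP cells at each time (-0.71, -0.47 and -0.55 untreated, at 6 h and at 48 h; adjusted p at most 6.4e-08). The interaction at 6 h was 0.24 with adjusted p = 0.0525 and passed without either ZMYND8 library of 48 h (adjusted p = 0.0363 and 0.0371) or the second of 6 h (0.0443) and with at least 10 counts in every library (0.0481). The interaction at 48 h was 0.15 (adjusted p = 0.2) and passed without the first ZMYND8 library of 48 h (0.25, adjusted p = 0.045).

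FZD2 was at 58.8 and 55.9 CPM in untreated GFP cells, 62.6 and 61.0 CPM at 6 h and 50.5 and 51.1 CPM at 48 h, and at 45.5 and 43.5 CPM, 51.8 and 57.1 CPM and 32.8 and 32.8 CPM in ZMYND8 cells. The libraries of 48 h were the lowest in each line. FZD2 fell from 6 h to 48 h by 0.28 in GFP (SE 0.057, adjusted p = 0.000111; -0.04, adjusted p = 0.609 with library totals) and by 0.73 in ZMYND8 cells (SE 0.0604, adjusted p = 4.85e-11). Its change at 6 h was 0.11 in GFP (95% interval -0.01 to 0.23, adjusted p = 0.127; 0.15, adjusted p = 0.0251 in a fit of only these libraries) and 0.29 in ZMYND8 cells (SE 0.0594, adjusted p = 0.000225).

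At 48 h FZD2 was below untreated cells in the ZMYND8 line (log2 change -0.44, SE 0.0617, adjusted p = 6.91e-07). In the GFP line the change was -0.17 (SE 0.0573, adjusted p = 0.0095), which became -0.15 (adjusted p = 0.0847) without the first untreated library, 0.07 (adjusted p = 0.29) with library totals, -0.14 (adjusted p = 0.124) with DESeq2 and -0.10 (adjusted p = 0.118) with at least 10 counts in every library. The interaction at 48 h was -0.26 (SE 0.0842, adjusted p = 0.0189). Its call was lost without any 1 of 5 libraries, though the value stayed about as large. It was -0.25 without the second GFP library of 48 h and -0.23 without the second untreated GFP library. Without either ZMYND8 library of 48 h it was -0.26, and without the first untreated ZMYND8 library -0.25. FZD2 was lower in ZMYND8 than in GFP cells untreated (-0.37, adjusted p = 5.4e-06) and at 48 h (-0.63, adjusted p = 5.9e-10), and at 6 h (-0.18, adjusted p = 0.00775) except without the first 6 h library of GFP cells (-0.17, adjusted p = 0.0642) or of ZMYND8 cells (-0.11, adjusted p = 0.171).

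FZD4, the receptor for the non-Wnt ligand norrin in the retinal vasculature, had its largest rise in ZMYND8 cells at 48 h. It was at 32.6 and 32.0 CPM in untreated GFP cells, 44.1 and 45.4 CPM at 6 h and 44.8 and 42.4 CPM at 48 h. In the ZMYND8 line it was at 54.7 and 58.6 CPM, 52.2 and 51.0 CPM and 103 and 101 CPM. The GFP libraries of 6 h and 48 h overlapped, and in ZMYND8 cells the step came between 6 h and 48 h.

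In GFP cells FZD4 rose by 0.47 at 6 h (SE 0.0615, adjusted p = 3e-07) and 0.43 at 48 h (SE 0.0602, adjusted p = 5.21e-07). Its difference between 6 h and 48 h was -0.04 (95% interval -0.16 to 0.08, adjusted p = 0.577), and 0.21 with adjusted p = 0.00249 under library totals. In ZMYND8 cells FZD4 rose by 0.85 at 48 h (SE 0.0508, adjusted p = 5.23e-14), and by 0.99 from 6 h to 48 h (SE 0.0516, adjusted p = 3.83e-15). Its small difference at 6 h was -0.14 (SE 0.0553, adjusted p = 0.0496). The call was lost in 11 of the 12 fits that left out 1 library. The value was then -0.08 without the second untreated ZMYND8 library, -0.12 without the second ZMYND8 library of 6 h and -0.13 to -0.15 in the rest. The call was also lost with DESeq2, no filter, only the libraries compared or the replicate block (-0.12 to -0.15, adjusted p 0.0576 to 0.204).

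FZD4 was higher in ZMYND8 than in GFP cells by 0.81 untreated (SE 0.0592, adjusted p = 3.08e-12), 0.21 at 6 h (SE 0.0575, adjusted p = 0.00343) and 1.23 at 48 h (SE 0.0517, adjusted p = 3.88e-17), a 2.35-fold difference. The interaction was -0.61 at 6 h (SE 0.0827, adjusted p = 9.71e-06) and 0.42 at 48 h (SE 0.0791, adjusted p = 0.000186). PRSS23, whose exons overlap those of FZD4 on the other strand, had means of 943, 1024 and 462 CPM at 0, 6 and 48 h in GFP cells and of 724, 858 and 688 CPM in ZMYND8 cells. The part of PRSS23 reads in the FZD4 values was not tested in either system.

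FZD6 and FZD3 are known above all for planar cell polarity. FZD6 was at 98.3 and 106 CPM in untreated GFP cells, 133 and 141 CPM at 6 h and 112 and 114 CPM at 48 h, and at 81.8 and 78.3 CPM, 106 and 102 CPM and 85.0 and 82.3 CPM in ZMYND8 cells. The libraries of 6 h were the highest in each line. FZD6 rose at 6 h by 0.42 (SE 0.0481, adjusted p = 2.87e-08) in GFP and 0.38 (SE 0.0501, adjusted p = 5.02e-07) in ZMYND8 cells, with an interaction of -0.04 (95% interval -0.18 to 0.10, adjusted p = 0.783).

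From 6 h to 48 h FZD6 fell by 0.28 (SE 0.047, adjusted p = 1.14e-05) and 0.32 (SE 0.049, adjusted p = 3.39e-06), which became -0.03 in both lines with library totals (adjusted p = 0.596 and 0.643). The net change at 48 h was 0.15 in GFP cells (adjusted p = 0.0102), a call lost without the second library of 48 h (0.12, adjusted p = 0.0831) or the first untreated library (0.08, adjusted p = 0.259), and 0.07 in ZMYND8 cells (adjusted p = 0.257). The latter passed with library totals (0.27, adjusted p = 5.21e-05) and with at least 10 counts in every library (0.16, adjusted p = 0.00875). FZD6 was lower in ZMYND8 than GFP cells at every time (log2 changes -0.35, -0.39 and -0.43, adjusted p at most 8.36e-07).

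FZD3 was at 10.2 and 12.2 CPM in untreated GFP cells, 9.87 and 12.3 CPM at 6 h and 13.2 and 14.3 CPM at 48 h, and at 8.93 and 7.40 CPM, 9.86 and 10.7 CPM and 10.3 and 9.61 CPM in ZMYND8 cells. Its 202 and 231 counts in untreated GFP cells equal those of FZD5 in the deposited table, and the 2 genes differ in every other library. Several groups overlapped, and most calls of FZD3 rested on single libraries. In GFP cells its change was 0.30 at 48 h (SE 0.123, adjusted p = 0.0372) and 0.32 from 6 h to 48 h (SE 0.124, adjusted p = 0.0289). The first call was lost without the first or second library of 48 h (0.35 and 0.22) or the first untreated library (0.16). The other call was lost without the second library of 48 h (0.24) or the first of 6 h (0.15). Both were lost with DESeq2 (adjusted p = 0.0731 and 0.0717) and with no filter (adjusted p = 0.0783 and 0.133).

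In ZMYND8 cells the change of FZD3 at 6 h was 0.34 (SE 0.136, adjusted p = 0.0456). Its call was lost without any 1 of 5 libraries, at 0.20 (without the second untreated ZMYND8 library) to 0.40. The call was also lost with library totals (0.26, adjusted p = 0.142). It was lost too with DESeq2, no filter, at least 10 counts in every library or only the libraries compared (0.32 to 0.36, adjusted p 0.0513 to 0.135). At 48 h the change was 0.30 (SE 0.133, adjusted p = 0.0554). It passed without the first untreated ZMYND8 library (0.40), with library totals (0.50, adjusted p = 0.00207) and with at least 10 counts in every library (0.39, adjusted p = 0.0131). FZD3 was lower in ZMYND8 than in GFP cells at 48 h (-0.47, SE 0.122, adjusted p = 0.00163). It was also lower in untreated cells (-0.47, SE 0.134, adjusted p = 0.00409), except without the second untreated GFP (-0.34, adjusted p = 0.0899) or ZMYND8 library (-0.33, adjusted p = 0.0991). At 6 h the difference was -0.11 (95% interval -0.37 to 0.16, adjusted p = 0.524).

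**Figure D4:**
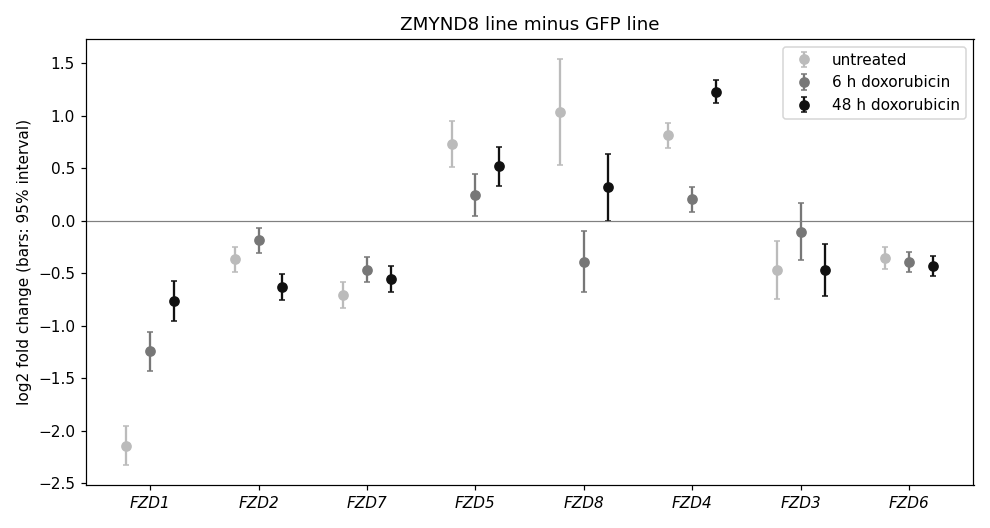
Log2 fold change of the ZMYND8 line against the GFP line (vertical axis, edgeR, bars 95% interval) for 8 Frizzled receptors in untreated cells (light), at 6 h (grey) and at 48 h (black) of doxorubicin. FZD1 lies lowest in untreated cells (-2.14) and moves toward 0 with time (-0.77 at 48 h), FZD4 lies highest at 48 h (1.23), and FZD2, FZD7 and FZD6 are below 0 at all 3 times.

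Counted over the family, the comparison of ZMYND8 with GFP cells gave 3 members higher (FZD4, FZD5 and FZD8) and 5 lower in untreated cells, beside 28.7% and 29.5% of all genes. At 6 h, 2 were higher and 5 lower (28.9% and 26.6% of all genes), and some of these calls rest on single libraries, as given above. With library totals 1 was higher and 5 lower, beside 10417 of all 18801 genes called, 48.2% of them higher. At 48 h, 2 were higher and 5 lower (28.4% and 31.6% of all genes). For the interaction, 1 member was higher and 3 were lower at 6 h (7.86% and 5.52% of all genes), and 2 were higher and 1 lower at 48 h (12.7% and 15.8% of all genes). With library totals the split of all interaction calls at 6 h moved from 58.8% higher to 32.2% higher. The median member differed between the lines by -0.36 in untreated cells, against 0.00 for the median gene. Comparisons that share a condition are not independent of each other.

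The transient system asks the same of 48 h of doxorubicin, with 6 libraries and at lower depth except for the second doxorubicin library. Replicates also differed more there. Libraries of the same group gave a chi-square of 10.7 to 22.7 for each degree of freedom, against 2.19 to 5.21 in the inducible system. In simulated data the transient fit recovered 41.3% of genes changed by 1 on the log2 scale, against 90.8% for GFP cells at 48 h. The simulated libraries were drawn independently with few genes changed, so these shares are not the power in the real data. FZD8 had 4 and 8 counts in the controls, 9 and 52 after doxorubicin (the latter in the deep library) and 8 and 9 in the group labelled ZMYND8 plus doxorubicin, and did not pass the filter on low counts; its levels were 0.76 and 1.39, 1.56 and 1.98, and 1.35 and 1.48 CPM. None of the 7 members tested was called by edgeR against control cells, with doxorubicin (2.98% of all 15697 genes higher and 2.15% lower) or in the group labelled ZMYND8 plus doxorubicin (3.85% and 2.97%). In each of these comparisons 3 members had an unadjusted p under 0.05. The share of all genes at that unadjusted threshold was not counted, so this number has no background to be set against. Library totals in place of TMM factors moved the median of all genes to 0.15 and 0.14 in these comparisons, and the share of higher genes among those called from 58.1% to 78.0% and from 56.5% to 73.8%. DESeq2 called 1 member (FZD1) with doxorubicin and 0 in the other comparison. With the replicate number as a block, edgeR called 1 member (FZD1) with doxorubicin and 3 (FZD1, FZD3 and FZD4) in the labelled libraries. Beside these, 2410 and 2795 of all 15697 genes were called with the block, against 805 and 1071 without it. Between the labelled libraries and doxorubicin alone, 0 members were called by edgeR or DESeq2, 0 had an unadjusted p under 0.05, and 0% of all genes were higher and 0% lower. The second libraries of these groups were nearly alike, and whether they come from the same sample was not tested. If they do, this comparison holds the same sample on both sides.

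**Figure D5:**
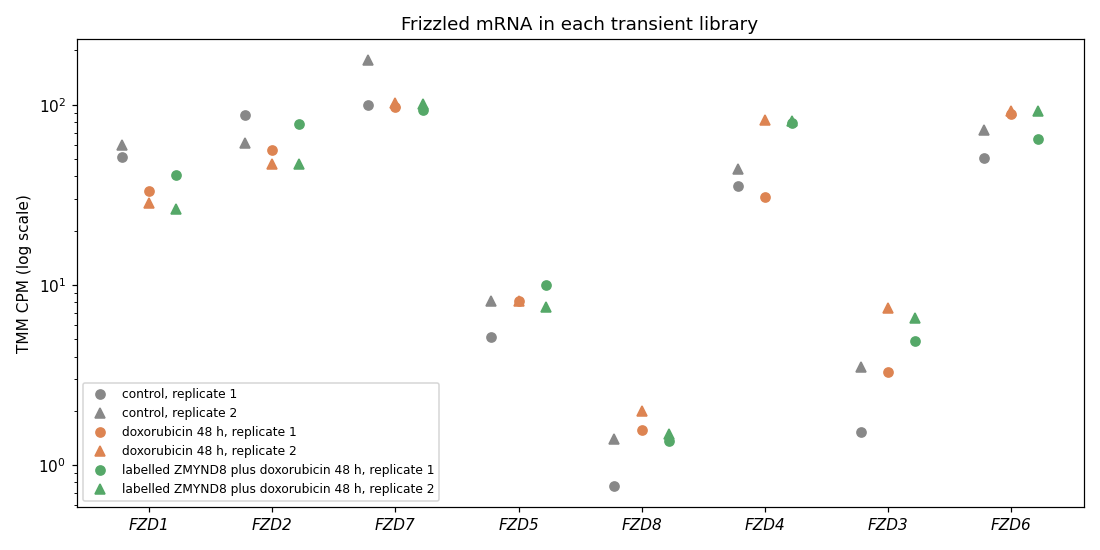
TMM CPM (vertical axis, log scale) of 8 Frizzled receptors in each of the 6 transient libraries (points; circles replicate 1, triangles replicate 2), for control cells, doxorubicin for 48 h and the libraries labelled ZMYND8 plus doxorubicin. The 2 libraries of a group lie far apart for FZD4 with doxorubicin (30.7 and 82.4 CPM) and for FZD7 in control cells (99.2 and 177 CPM).

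FZD1 was at 51.1 and 60.0 CPM in control cells, 33.3 and 28.6 CPM with doxorubicin and 40.9 and 26.3 CPM in the group labelled ZMYND8 plus doxorubicin. Control libraries lay above all treated ones. The change with doxorubicin was -0.85 (95% interval -1.40 to -0.30, adjusted p = 0.0739), which passed in DESeq2 (-0.86, adjusted p = 0.0376) and with no filter (-0.84, adjusted p = 0.0285). In the labelled libraries it was -0.73 (95% interval -1.28 to -0.18, adjusted p = 0.105). With the replicate block FZD1 fell by 0.86 (adjusted p = 0.0167) and by 0.75 (adjusted p = 0.0305).

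FZD4 was at 35.3 and 44.2 CPM in control cells, 30.7 and 82.4 CPM with doxorubicin and 79.3 and 81.6 CPM in the labelled libraries. The first doxorubicin library lay below the controls, and the second lay with the labelled libraries, one of which it closely resembles over all genes. Its change was 0.53 with doxorubicin (95% interval -0.26 to 1.32, adjusted p = 0.425) and 1.02 in the labelled libraries (95% interval 0.22 to 1.82, adjusted p = 0.116). The latter passed without the first or the second doxorubicin library (adjusted p = 0.0207 and 0.0241) with no filter (1.00, adjusted p = 0.00284) and with the replicate block (1.05, adjusted p = 0.0174). PRSS23 was at 513 and 548, 271 and 471, and 449 and 472 CPM in the same order of libraries.

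FZD7 was at 99.2 and 177 CPM in control cells, 96.9 and 102 CPM with doxorubicin and 93.2 and 101 CPM in the labelled libraries, so that the second control stood alone. Without the first control library its change in the labelled libraries was -0.88 (adjusted p = 0.0441), against -0.51 (95% interval -1.07 to 0.05, adjusted p = 0.247) with both. FZD2 changed by -0.53 with doxorubicin (95% interval -1.13 to 0.07), from 87.4 and 60.9 CPM to 56.3 and 47.1 CPM, and was at 78.1 and 47.1 CPM in the labelled libraries. FZD6 was at 50.8 and 72.7, 88.2 and 91.7, and 64.8 and 92.6 CPM, a change with doxorubicin of 0.54 (95% interval 0.01 to 1.07, adjusted p = 0.215). FZD3, known at 8 and 20 counts in control cells, changed by 1.16 (95% interval 0.05 to 2.26, adjusted p = 0.206) with doxorubicin and by 1.18 (adjusted p = 0.193) in the labelled libraries, the latter 1.23 (adjusted p = 0.0419) with the replicate block. FZD5 changed by 0.29 (95% interval -0.45 to 1.02, adjusted p = 0.666).

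The other genes of the Wnt pathway were taken from lists by role. The list of beta-catenin targets shares genes with those of receptor turnover, ligand release, and cytoplasm and nucleus. The counts of these lists are thus not independent of each other. Of 19 Wnt ligands 10 were tested in the inducible system, of which 3 were higher and 6 lower at 48 h in GFP cells (32.4% and 31.8% of all genes) and 4 higher and 4 lower in ZMYND8 cells (31.6% and 30.8%). At 6 h 1 was higher and 5 lower in GFP cells (22.1% and 25.8%) and 2 and 3 in ZMYND8 cells (21.8% and 19%). In ZMYND8 against GFP cells, 3 were higher and 6 lower untreated (28.7% and 29.5%), 3 and 5 at 6 h (28.9% and 26.6%) and 3 and 3 at 48 h (28.4% and 31.6%). WNT5A, a ligand that mostly acts without beta-catenin, was higher in the ZMYND8 line at each time, by 3.46 (SE 0.201, adjusted p = 2.69e-14) untreated, from a mean of 1.39 CPM in GFP to 15.4 CPM in ZMYND8 cells. WNT7B was also higher in untreated ZMYND8 cells (1.22, SE 0.0664, adjusted p = 6.84e-15), and WNT9A was lower (-1.19, SE 0.0861, adjusted p = 2.81e-12). WNT9A fell by 1.35 at 48 h in GFP cells (SE 0.0858, adjusted p = 1.37e-13). Norrin itself (NDP), the ligand of FZD4, was low, with a mean of 3.68 CPM in untreated GFP and 1.59 CPM in untreated ZMYND8 cells.

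Among 8 co-receptors and alternative Wnt receptors, 7 were tested, and 1 was higher and 4 were lower at 48 h in GFP cells, 2 and 4 in ZMYND8 cells, and 0 and 6 in untreated ZMYND8 against GFP cells. The shares of all genes higher and lower were 32.4% and 31.8%, 31.6% and 30.8%, and 28.7% and 29.5%. Their median in that last comparison was -1.06, against 0.00 for all genes. LRP5, the Frizzled co-receptor, fell at 48 h by 1.95 in GFP (SE 0.0479, adjusted p = 3.04e-22) and by 1.90 in ZMYND8 cells (SE 0.0532, adjusted p = 6.46e-21). PTK7, a receptor-like protein of planar polarity, was lower in ZMYND8 than GFP cells (log2 change -3.49, SE 0.0543, adjusted p = 1.25e-26), at a mean of 23.8 against 266 CPM untreated. At 6 h of doxorubicin 1 of the 7 was higher and 3 lower in GFP cells (22.1% and 25.8% of all genes) and 2 and 2 in ZMYND8 cells (21.8% and 19%), and at 48 h 0 were higher and 5 lower in ZMYND8 than GFP cells (28.4% and 31.6%). TSPAN12, the tetraspanin that assists FZD4 in norrin signaling, rose at 6 h by 1.48 in GFP (SE 0.23, adjusted p = 4.64e-06) and 1.03 in ZMYND8 cells (SE 0.291, adjusted p = 0.00529). It was lower in ZMYND8 than GFP cells at 48 h (-1.79, SE 0.239, adjusted p = 3.08e-07), where FZD4 was higher.

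Downstream of the receptors, all 17 genes of the cytoplasm and nucleus list were tested, with 8 higher and 9 lower at 48 h in GFP cells and 5 higher and 7 lower in ZMYND8 cells, beside 32.4% and 31.8% of all genes in GFP and 31.6% and 30.8% in ZMYND8 cells. Between the untreated lines 7 were higher and 5 lower in ZMYND8 cells (28.7% and 29.5% of all genes), with a median of 0.07 against 0.00 for all genes. CTNNB1, which encodes beta-catenin, was lower in untreated ZMYND8 than GFP cells (log2 change -1.19, SE 0.0381, adjusted p = 7.68e-20). DVL1, a Dishevelled gene, fell at 48 h by 1.14 in GFP (SE 0.0471, adjusted p = 1.59e-17) and by 1.38 in ZMYND8 cells (SE 0.0443, adjusted p = 8.91e-20). Of 13 beta-catenin targets 11 were tested, and 6 were higher and 2 lower at 48 h in GFP cells and 3 and 3 in ZMYND8 cells, beside the same shares of all genes. At 6 h in GFP cells 4 were higher and 2 lower (22.1% and 25.8% of all genes), and from 6 h to 48 h 6 and 3 (32% and 30.2%). In the transient system 8 were tested, with 1 higher and 1 lower with doxorubicin (2.98% and 2.15%). CCND1, the cyclin D1 gene, rose by 1.08 at 6 h in GFP cells (SE 0.0414, adjusted p = 1.76e-17) and then fell by 1.43 to 48 h (SE 0.0418, adjusted p = 2.62e-20). TCF7 rose at 48 h by 1.98 in GFP (SE 0.12, adjusted p = 5.12e-14) and 2.50 in ZMYND8 cells (SE 0.141, adjusted p = 1.61e-14), and in the transient system by 2.96 with doxorubicin (SE 0.353, adjusted p = 0.00461).

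The remaining lists were smaller. Of 9 tested inhibitors, 3 were higher and 1 lower at 48 h in GFP and 5 and 1 in ZMYND8 cells, beside 32.4% and 31.8% of all genes in GFP and 31.6% and 30.8% in ZMYND8 cells. With doxorubicin in the transient system 0 were higher and 1 lower of 5 tested (2.98% and 2.15% of all genes). DKK1, a secreted inhibitor that binds LRP6, fell by 1.25 with doxorubicin in the transient system (SE 0.293, adjusted p = 0.0361). All 5 genes of receptor turnover, which remove Frizzled from the surface or oppose that removal, were tested, with 2 higher and 1 lower at 48 h in GFP cells and 0 and 2 in ZMYND8 cells, beside the same shares of all genes. At 6 h 1 was higher and 2 were lower in GFP cells (22.1% and 25.8%), and 0 and 2 in ZMYND8 cells (21.8% and 19%). RNF43, a ligase that targets Frizzled receptors, fell at 6 h by 1.14 (SE 0.286, adjusted p = 0.00154) in GFP and by 2.17 (SE 0.389, adjusted p = 4.6e-05) in ZMYND8 cells, at means of at most 6.07 CPM. Of the 7 planar polarity partners, 0 were higher and 5 lower at 6 h in each line, beside 22.1% and 25.8% of all genes in GFP and 21.8% and 19% in ZMYND8 cells. Of 8 other ligands and genes of ligand release 4 were tested, with 1 higher and 2 lower at 6 h in GFP cells (22.1% and 25.8% of all genes) and 1 and 3 from 6 h to 48 h (32% and 30.2%). Porcupine (PORCN), which attaches the lipid to Wnt ligands, rose by 1.13 at 6 h in GFP cells (SE 0.0931, adjusted p = 6.81e-11) and fell by 1.71 to 48 h (SE 0.0963, adjusted p = 1.87e-14).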

How the data were processed

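The authors deposited raw counts of read pairs per gene in 2 tables. Per the file headers, featureCounts 1.6.4 summed exons per gene over the GENCODE release 31 annotation, in reverse-stranded mode. The submitters' processing notes name Trim Galore, HISAT2 and hg38, whereas the methods of the study name TopHat for alignment. Counts were not normalized and replicates were not pooled.

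Each table was fitted by itself with TMM factors in edgeR 4.0.16 (R 4.3.3), with a mean for each condition and the quasi-likelihood test, after its filter by expression, which left 18801 (inducible) and 15697 (transient) genes. A member was called at a Benjamini-Hochberg adjusted p of at most 0.05 over all genes tested. An interaction is the effect of doxorubicin in ZMYND8 minus that in GFP cells. There were 14 comparisons, 11 of them inducible. DESeq2 1.42.0, other scalings, filters and call rules and leaving out libraries were alternatives. The smallest two-sided p an exact permutation test allows with 2 against 2 libraries is 0.333. Members, lists and tests were chosen with earlier results of these data known. All members were named, and genes of the other lists could be named where called with a log2 change of at least 1 in any comparison; PRSS23 was named for its overlap with FZD4. Transient libraries with the same replicate number deviated together from their group means (correlations 0.21 to 0.41 over 3 pairs of groups, with only 2 numbers and a closely similar pair of second libraries), so values with the replicate block are given where they change a call. The pairing comes from the label numbers. Values are TMM CPM, or CPM per kb of exon between genes. Bounds used 3 counts per library. The fits were tested on simulated data with known changes. A log2 change of 1 was recovered in 90.8% of changed genes for GFP cells at 48 h and in 41.3% for transient doxorubicin. For a log2 change of 2 the shares were 99% and 92.6%. The simulations changed few genes, 98 by 1 and 102 by 2 for GFP cells and 104 and 94 for transient doxorubicin. They drew each library independently. In the data more genes were called, and the transient libraries deviated together, so these shares are not the power of the fits above.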

Additional observations from a re-analysis of the deposited data

Results flagged for a closer look

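In 7 instances the effect of doxorubicin on a member differed between the ZMYND8 and GFP lines by the interaction test of edgeR. At 6 h these were FZD1 (0.90), FZD5 (-0.48), FZD8 (-1.43) and FZD4 (-0.61). At 48 h they were FZD1 (1.38), FZD2 (-0.26) and FZD4 (0.42). FZD4 changed the side of its interaction between the 2 times, and the difference between the times was not tested. The calls of FZD5 and FZD2 depend on single libraries, as given above. With each library left out in turn, the values stayed at -0.61 to -0.36 for FZD5 and at -0.30 to -0.23 for FZD2. Groups of 2 libraries are too small to test for a library that stands apart.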

How the results depend on the processing

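The number of members called depended on the call rule. Under the study's rule (an unadjusted p of at most 0.05 with a log2 change of at least 1.5, or 1 in the transient system) it was 1, 1 and 0 in GFP cells at 6 h, at 48 h and from 6 h to 48 h, 1, 0 and 0 in ZMYND8 cells, 1, 0 and 0 between the lines untreated, at 6 h and at 48 h, 0 and 0 for the interactions, and 1 and 2 in transient doxorubicin and the labelled libraries. With an adjusted p and a log2 change of at least 1 it was 1, 2 and 1 in GFP cells, 1, 1 and 0 in ZMYND8 cells, 2, 1 and 1 between the lines, and 1 and 1 for the interactions. In ZMYND8 cells at 6 h, DESeq2, no filter on low counts and a fit of only the libraries compared called 5 members in place of 8. Over all genes they called 6376 of 18801, 7327 of 39998 and 7122 of 15783, against 7674 of 18801 in the main fit. In the transient system no filter called 1 member with doxorubicin and 1 in the labelled libraries. DESeq2 called 1 with doxorubicin, beside 1174 of all 15697 genes. Leaving out each library in turn gave 5 to 8 members in GFP cells at 48 h, 5 to 8 in ZMYND8 cells at 6 h, 4 to 7 between the lines at 6 h, and 0 to 1 in the labelled libraries. With library totals the sign changed for FZD2 in GFP cells at 48 h (0.0706) and FZD7 in ZMYND8 cells at 48 h (0.0476), which both lost their calls. It also changed for FZD4 in GFP cells from 6 h to 48 h (0.21), which gained a call. The replicate block, which pairs libraries by number, changed no inducible count except from 8 to 6 in ZMYND8 cells at 6 h. There it called 7582 of all genes, against 7674 without it. Inducible libraries with the same number did not deviate together (correlations -0.19 to 0.07 over 15 pairs of groups). With the block the transient counts were 1 (FZD1) with doxorubicin, 3 (FZD1, FZD3 and FZD4) in the labelled libraries and 0 between them, and 2410 and 2795 genes were called in all against 805 and 1071 without it. Over all genes, the study's rule called 377 to 2491 genes in the inducible comparisons and an adjusted p with a log2 change of at least 1 called 194 to 4203, against 2515 to 12077 at an adjusted p alone. In the transient system the study's rule called 1366 genes with doxorubicin, 1544 in the labelled libraries and 25 between the treated groups, of 15697 tested. Between the treated groups edgeR called 0 at an adjusted p. With no filter the numbers were 1505, 1774 and 17, of 37454 tested. Without both second treated libraries 0 members were called in each transient comparison. Of the inducible values of single members under an alternative, 1529 kept their side of the threshold (those not called could change sign), 210 lost the call and 18 gained it. Another 3 changed sign, each called on 1 scale only. Of the 210 losses, 64 came under the study's rule and 56 under an adjusted p with a log2 change of at least 1. Both rules use the estimates of the main fit. Many of the other values come from fits that left out 1 library. Low counts kept FZD9 and FZD10 out of the tests in both systems and FZD8 in the transient one.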

Other observations

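Over the 12 inducible libraries, the genes whose log2 CPM followed a member most closely, among 12358 genes with a symbol, were ANOS1 and ACOT8 for FZD1 (Pearson r 0.987 and 0.982), POLR2E and TARS1 for FZD2 (0.992 and 0.980), OGFRL1 and THBS1 for FZD7 (0.987 and 0.986), RNF25 and MIS12 for FZD5 (0.972 and 0.971), POLE3 and NOLC1 for FZD8 (0.988 and 0.986), ZNF738 and ARRDC4 for FZD4 (0.988 and 0.967), DIS3L and ERCC3 for FZD3 (0.932 and 0.893) and FAM91A1 and CCNH for FZD6 (0.991 and 0.986). The 12 points are 6 conditions of 2 libraries each and share depth and treatment, so the values are descriptions and carry no p. FZD3 had the weakest best match of the 8.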
